A study of Homo sapiens with 3 samples.

Results

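Large deletions are described here as they appear in capped RNA from edited human promoters: every distinct deletion of 30 or more bases, in each target with at least 50 capped 5′ ends that carry one. The deposited list gives the edges of the deletion for each 5′ end, and an allele is a distinct pair of edges. The rule was met in 6 targets and found 335 alleles with 5427 ends, out of 2286 alleles with 82114 edited ends in 13 targets. TMED9, with 56 ends, was just inside the limit, and TXNRD2, with 44, was just outside. A further 64 alleles with 139 ends lay in 6 targets under the limit. The members were chosen by deletion length and number of ends, so both are given as description only.

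The cells were HEK293T, a human embryonic kidney line, transfected in 2 rounds with Cas9 ribonucleoprotein carrying 1 guide RNA per target. RNA was taken from the mixed transfected cells, not from clones, decapped, ligated to an RNA oligonucleotide ending in 8 random bases and copied with gene-specific primers, per the labels' protocols. A 5′ end read in this way (CRISPR-Cap) shows both where transcription began and which deletion the RNA carries. Edited ends carry a deletion and unedited ends, from the same cells, carry none. The list pools 2 libraries with no column that separates them, so no value below has a replicate error: 95% intervals of shares are Wilson intervals, and those of differences come from the spread between alleles and the counting of unedited ends. The sources used here do not say if lines were collapsed by the random bases. For uncollapsed PCR reads the Wilson intervals, which cover counting error only, are too narrow. So is the part of the other intervals that comes from the counting of unedited ends.

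Cas9 cuts both DNA strands at a fixed place next to the guide's target, and cells rejoin the ends with small losses or, less often, with longer ones. Longer losses often arise where short identical stretches on either side of the cut anneal, a route called microhomology-mediated end joining, which leaves the same few letters at both edges. RNA polymerase II chooses its start within a window set by core promoter elements around and downstream of the start, and many promoters without a TATA box use a spread of starts. A deletion downstream of the starts removes template that the polymerase reads after it has begun, while a deletion across a start removes that start itself.

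The edges of the commonest large deletions are shown because their letters recur across targets. Each run is 20 bases of the transcript strand, 10 on either side of the edge, from GENCODE release 29 transcripts on hg38. Capitals mark the first 2 deleted bases at an upstream edge and the last 2 deleted bases at a downstream edge.
C19orf43 39-base allele, upstream edge (chr19:12734645-12734664, minus strand): cgacaaaatgGCtgcccgag
C19orf43 36-base allele, upstream edge (chr19:12734642-12734661, minus strand): caaaatggctGCccgaggga
C19orf43 50-base allele, upstream edge (chr19:12734656-12734675, minus strand): gcggcacctgGCgacaaaat
C19orf43, downstream edge of all 3 (chr19:12734606-12734625, minus strand): gggccgggAGgctccgggcc
RBM4 35-base allele, upstream edge (chr11:66616640-66616659, plus strand): aggactgccgGTcgttcgga
RBM4 35-base allele, downstream edge (chr11:66616675-66616694, plus strand): tggaggagAGgtccgggctc
TMED9 41-base allele, upstream edge (chr5:177592164-177592183, plus strand): gcagggcgacGTggcgcggc
TMED9 41-base allele, downstream edge (chr5:177592205-177592224, plus strand): gtggagcaAGatggctgtgg
C1orf63 32-base allele, upstream edge (chr1:25247455-25247474, minus strand): gtctgctaacGTagtccctc
C1orf63 32-base allele, downstream edge (chr1:25247423-25247442, minus strand): gacgtaggAGgtggaggttg
IRF1 40-base allele, upstream edge (chr5:132490780-132490799, minus strand): ttgctcggtgGCgccgctgc
IRF1 40-base allele, downstream edge (chr5:132490740-132490759, minus strand): cttagtcgAGgcaagacgtg
NDUFV3 33-base allele, upstream edge (chr21:42893292-42893311, plus strand): gcagctgctgTGgccctgct
NDUFV3 33-base allele, downstream edge (chr21:42893325-42893344, plus strand): gtcaccgcCAtggctgcccc
The deleted stretch began with GT or GC and ended with AG in the leading allele of every target except NDUFV3. GT with AG are the letters at the ends of most introns, and GC with AG those of a less common intron class. NDUFV3 differed in these letters: its leading deletion began with TG and ended with CA. It had 4 identical bases at both edges, as did the leading alleles of C19orf43 and RBM4.

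Large deletions were unevenly spread over the 6 promoters. C19orf43, now named TRIR, encodes an RNase that interacts with the telomerase RNA. It held 4818 of the ends, 24.7% of its 19497 edited ends (Wilson interval 24.1 to 25.3%), in 133 alleles. The promoter of IRF1, a transcription factor of the interferon response, had 84 ends, 9.60% of its 875 edited ends (7.82 to 11.7%). C1orf63, now RSRP1, encodes an arginine- and serine-rich protein, and had 187 ends (3.49%, 3.03 to 4.01%). NDUFV3, an accessory subunit of respiratory complex I, had 125 ends (2.66%, 2.23 to 3.16%). The target labelled RBM4 begins at the start of RBM14, a nuclear RNA-binding protein, and had 157 ends of 26642 (0.589%, 0.504 to 0.689%). TMED9, a p24-family protein of endoplasmic reticulum and Golgi traffic, had 56 of 13740 (0.408%, 0.314 to 0.529%).

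Lengths ran from 30 to 99 bases. The median length over ends was 39 bases at C19orf43 and IRF1, 36 at NDUFV3, 35 at C1orf63 and RBM4 and 46 at TMED9. The ends with 30 to 39 deleted bases made up 87.9% at RBM4, 71.2% at NDUFV3, 71.1% at C1orf63, 68.1% at C19orf43, 52.4% at IRF1 and 26.8% at TMED9. Of the large-deletion ends, those that lost at least 60 bases were 12.5% at TMED9 (7 ends), 9.40% at C19orf43 (453), 8.80% at NDUFV3 (11), 8.02% at C1orf63 (15), 4.76% at IRF1 (4) and 1.91% at RBM4 (3).

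A few alleles dominated in C19orf43 and RBM4, while the other targets held many rare ones. At C19orf43 the deletion of chr19:12734616-12734654, 39 bases, accounted for 1851 ends or 38.4% (37.1 to 39.8%) of the large-deletion ends. The 36-base deletion chr19:12734616-12734651 had 1044 ends and the 50-base deletion chr19:12734616-12734665 had 542. At RBM4 the 35-base deletion chr11:66616650-66616684 had 83 of 157 ends, 52.9% (45.1 to 60.5%). The next at RBM4 had 21 ends over 30 bases, followed by alleles of 33 and 50 bases with 10 ends each. The leading alleles elsewhere held far less: 18 ends at C1orf63 (9.63%), 15 at IRF1 (17.9%), 15 at NDUFV3 (12%) and 9 at TMED9 (16.1%). Expressed as the number of equally used alleles that would give the same concentration (the inverse of the summed squared shares), C19orf43 had 4.76 and RBM4 3.21. TMED9 had 10.6, IRF1 13.9, NDUFV3 20.97 and C1orf63 28.6. A single end supported 61 of the 133 alleles at C19orf43, 49 of 80 at C1orf63, 22 of 34 at IRF1, 30 of 51 at NDUFV3, 4 of 15 at RBM4 and 13 of 22 at TMED9.

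Edges were shared among alleles. At C19orf43, 12 alleles with 75.5% of the ends (74.2 to 76.7%) ended at the same downstream base, 12734616, and reached back to different upstream bases. The reverse held at RBM4, where 6 alleles with 81.5% of the ends (74.7 to 86.8%) began at 66616650 and ran to different downstream bases. At IRF1, 5 alleles with 42.9% of the ends (32.8 to 53.5%) ended at 132490750. At TMED9, 3 alleles with 33.9% (22.9 to 47.0%) began at 177592174. At C1orf63 and NDUFV3 no edge held more than 17.6% of the ends.

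**Figure D1:**
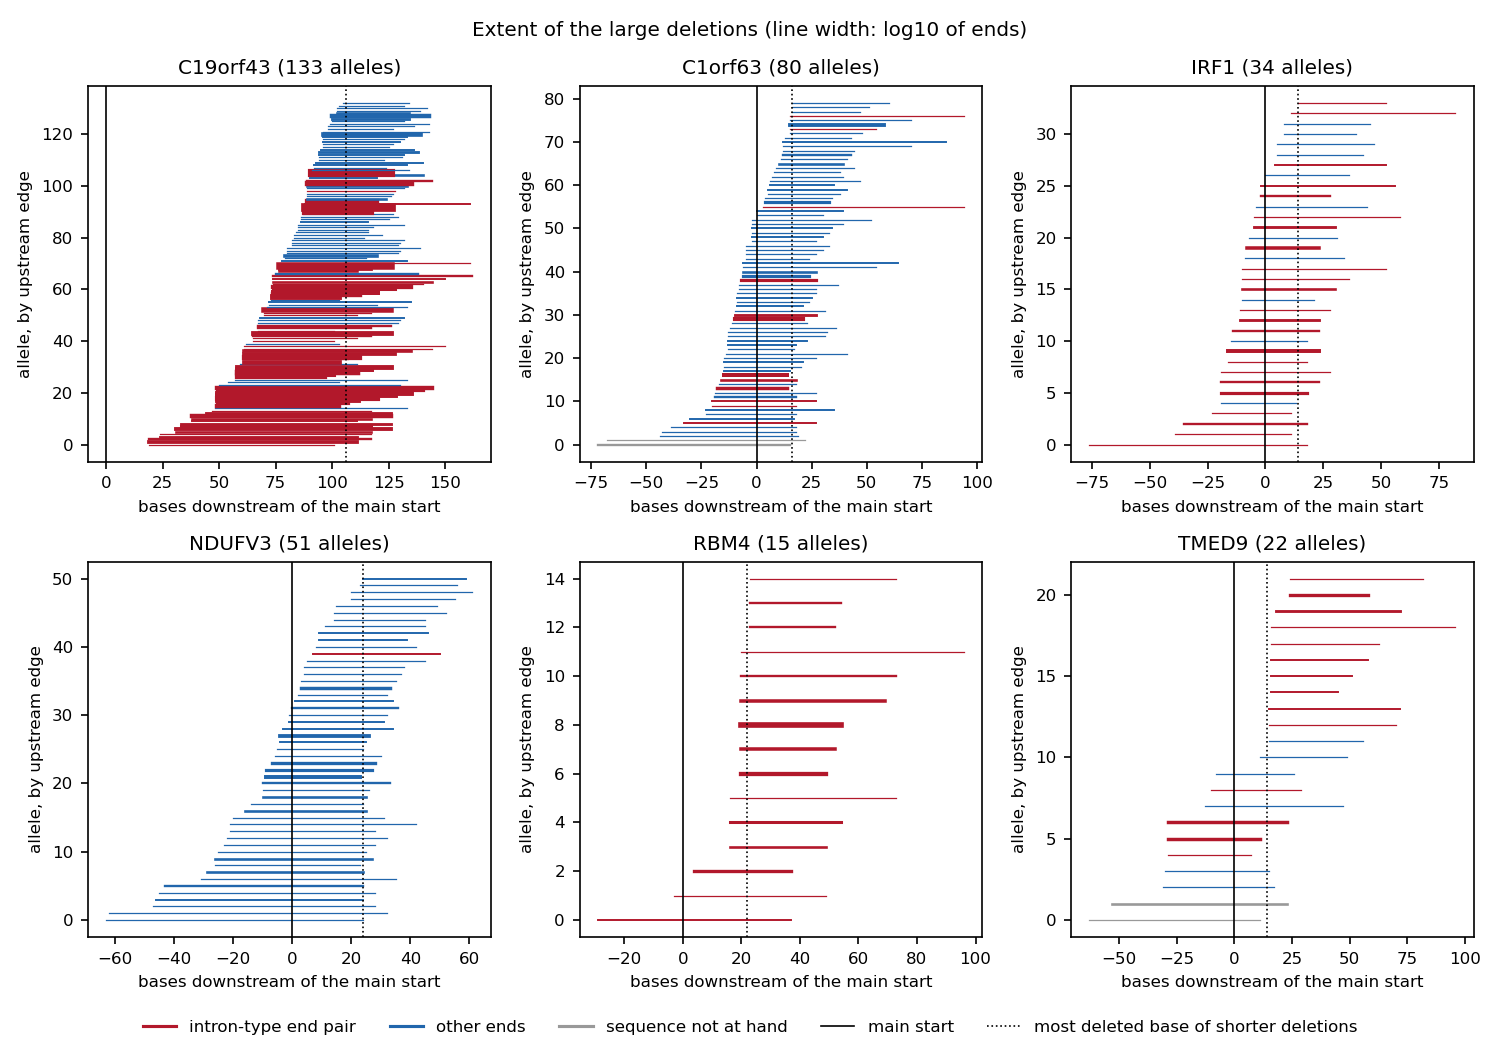
Each horizontal line is 1 large-deletion allele, drawn from its first to its last deleted base in bases downstream of the main start (horizontal axis) and stacked by upstream edge (vertical axis), with line width growing with log10 of its ends. The solid vertical line is the main start, and the dotted line is the base most often deleted by deletions under 30 bases; at C19orf43 every line lies downstream of the main start and many end at the same base, while at C1orf63, IRF1 and NDUFV3 most lines cross the main start.

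Position relative to the cut and to the starts differed by target. The base that deletions under 30 bases removed most often served as a marker of the cut. It was included in 298 of the 335 alleles, among them 122 of 133 at C19orf43, 76 of 80 at C1orf63, 31 of 34 at IRF1, 49 of 51 at NDUFV3 and 12 of 15 at RBM4. TMED9 stood apart in this count, with 8 of 22. Of its 3 leading alleles, the 53-base deletion chr5:177592174-177592226 (9 ends) included the marker. The 41-base deletion chr5:177592174-177592214 (9 ends) ended 3 bases upstream of it, and the 35-base deletion chr5:177592227-177592261 (8 ends) began 10 bases downstream of it. Deletions reached farther downstream than upstream of the marker in 13 of 15 alleles at RBM4, and farther upstream in 38 of 51 at NDUFV3.

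The main start, meaning the most used start among unedited ends, was itself deleted in 126 alleles with 336 ends. These were 27 of 34 alleles at IRF1, 55 of 80 at C1orf63, 32 of 51 at NDUFV3, 10 of 22 at TMED9, 2 of 15 at RBM4 and none of 133 at C19orf43, where the marker lies 106 bases downstream of the main start. At the other 5 targets the marker lies 14 to 24 bases downstream of it. The start survived with at least 8 bases before the deletion in 189 alleles with 5045 ends, of which 4818 belonged to C19orf43.

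Coding sequence was reached in 204 alleles by the GENCODE annotation. All 51 alleles at NDUFV3 removed at least 1 base of the annotated start codon, in which the cut marker lies, as did 90 of 133 at C19orf43 and 8 of 22 at TMED9. The count was 1 of 15 at RBM4 and 0 at C1orf63 and IRF1, where no deletion reached annotated coding sequence. At C19orf43 the leading 39-base deletion began at the base after the start codon (chr19:12734655-12734657), and the 36-base deletion began 3 bases farther on. Together they account for most of the C19orf43 ends whose start codon is intact. All 133 C19orf43 deletions and 325 of the 335 in all lay wholly within an annotated exon.

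The letters at the edges set the large deletions apart from the short ones. An intron-type end pair is defined here as GT-AG, GC-AG or AT-AC, the first 2 and last 2 bases of known intron classes, or the same pairs read on the opposite strand (CT-AC, CT-GC and GT-AT), at the edges as deposited. Bases at both edges were at hand for 331 of the 335 alleles. Such a pair was present in 130 of these, 39.3% (34.2 to 44.6%), and those alleles held 4997 of 5418 ends, 92.2%. Among deletions of 3 to 20 bases in the same targets, 17 of 1066 alleles had one, 1.59% (0.998 to 2.54%), with 0.528% of the ends. Among all possible stretches of 30 to 99 bases in the same windows, 2.63% had one. The intervals of the large and the short deletions did not overlap. They count each allele as independent, although alleles that share an edge share its letters, so they are too narrow.

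The change with length was a step between 20 and 21 bases, below the limit used to choose the members. At 20 bases there were 62 alleles with 7071 ends, and 0 had an intron-type pair, which allows up to 4.84% of alleles (3 counts of the total). At 21 bases there were 16 alleles with 243 ends, of which 6 alleles with 195 ends, 80.2%, had one. From 21 to 29 bases the pair was found in 25 of 152 alleles, 16.4% (11.4 to 23.2%), with 67.0% of the ends. The number of alleles per length dropped at the same place, from 58 to 62 at 18 to 20 bases to 16 to 24 at 21 to 24 bases. The share of ends varied from 0 to 100% from length to length above the step. It was 0% at 28 bases (61 ends), 6.0% at 31 bases and 99.5% at 39 bases, the length of the leading C19orf43 allele.

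**Figure D2:**
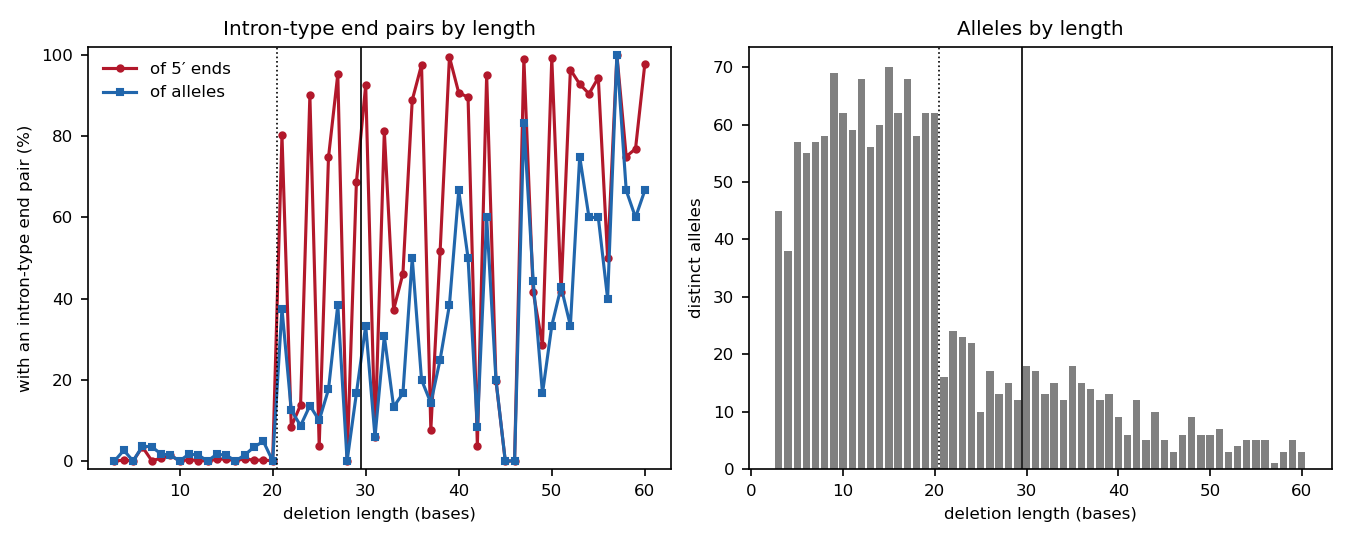
Left, the share of 5′ ends (circles) and of alleles (squares) with an intron-type end pair against deletion length in bases, from 3 to 60 bases in the 6 targets; right, the number of distinct alleles at each length. The dotted line separates 20 from 21 bases, where the share of ends goes from 0% to 80.2% and the number of alleles from 62 to 16, and the solid line marks the limit of 30 bases.

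Targets differed in this feature. All 15 alleles at RBM4 carried such a pair, as did 14 of 20 at TMED9, 23 of 34 at IRF1 and 65 of 133 at C19orf43, where they held 96.6% of the ends. C1orf63 had 12 of 78 (15.4%, 9.03 to 24.99%), with 36.6% of the ends, and NDUFV3 had 1 of 51 (1.96%, 0.347 to 10.3%), with 1.60% of the ends. The intervals of RBM4 (79.6 to 100.0%), TMED9 (48.1 to 85.5%), IRF1 (50.8 to 80.9%) and C19orf43 (40.5 to 57.3%) lay above those of C1orf63 and NDUFV3. Alleles that share an edge are not independent, so these intervals are too narrow and do not rank the targets. The 15 RBM4 alleles had only 6 distinct upstream and 7 distinct downstream edges. Over deletions of 3 to 20 bases no target exceeded 3.57%. By kind, GC-AG was found in 46 alleles with 3862 ends, of which 29 alleles with 3800 ends were at C19orf43. GT-AG was found in 34 alleles with 415 ends, of which 9 alleles with 135 ends were at RBM4. The opposite-strand pairs CT-GC and CT-AC were found in 34 and 16 alleles, with 508 and 212 ends, and AT-AC and GT-AT in none.

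Placement differed with the pair as well. Where bases repeat at both edges, a deletion can be written at several coordinates that describe the same allele, and the deposited edges were mostly at the lowest coordinate. An allele that could still be moved to a lower coordinate was found in 66 of the 130 with an intron-type pair and in 1 of the 201 without. Among deletions of 3 to 20 bases, 12 of 1049 without a pair and 1 of 17 with one could be moved. STAR, named in the submitters' processing notes, is a spliced aligner that treats gaps shorter than a set length as deletions and longer ones as introns, and it favours long gaps that end in intron letters. Its default limit counts a gap of 21 or more bases as an intron, which is where the step lies. The sources used here do not give its settings, and their part in which large deletions were listed was not tested. The list is made from RNA, so a stretch lost from the DNA and a stretch lost from the RNA alone cannot be told apart in it, and genomic DNA was not analysed here.

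Identical letters at both edges were more frequent than in short deletions. The number of bases shared across the edges had a median of 1 over the 331 alleles and a maximum of 5. None were shared in 85 alleles, 25.7%, and 2 or more in 132 alleles, 39.9% (34.7 to 45.2%). Among alleles of 3 to 20 bases, 2 or more were shared in 131 of 1066, 12.3% (10.5 to 14.4%), and among the possible alleles of 30 to 99 bases in the same windows in 8.95%. Here too the intervals count each allele as independent, although alleles can share an edge, so they are too narrow. Weighted by ends, 86.9% of the ends belonged to alleles with 2 or more shared bases, since the leading alleles at C19orf43 and RBM4 had 4 each. TMED9 had 2 or more in 1 of 20 alleles, and its alleles of 41 and 53 bases had 0. NDUFV3 had 2 or more in 29 of 51, and its 3 leading alleles had 4, 4 and 3.

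Start use was compared only at positions that lie 8 or more bases upstream of the deletion, in edited ends and in unedited ends alike. For each allele the unedited share was taken over the positions that the allele retains, and shares were averaged over alleles by their edited ends. The mean over all alleles includes those that lack the main start, for which both shares are 0.

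At C19orf43 the main start (12734742) took a larger part of the ends on alleles with a large deletion. It held 2607 of 4788 edited ends, 54.4% (53.0 to 55.9%), against 36.9% of unedited ends at the same positions. The difference was 17.5 percentage points (12.2 to 22.8) over 132 alleles. Another cluster of starts lies downstream of the main start, next to the deletions. Its leading position, 12734663, 79 bases downstream of the main start, had the largest matched loss, with 7.89% (7.16 to 8.69%) of the edited ends against 17.9% of the unedited ends. The neighbouring position 12734662 held 7 edited ends, 0.146%, against 2.83%. The position 4 bases upstream of the main start, 12734746, had the second largest gain, with 12.4% against 9.24%. The mean position lay 16.6 bases farther upstream (11.6 to 21.5) than in matched unedited ends. This shift was 8.44 bases with alleles of 5 or more ends weighted equally, 8.10 with deletions of 40 or more bases, and 10.2 and 4.19 with at least 12 and 20 retained bases, each with an interval above 0.

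The leading C19orf43 alleles each had a main-start share above the unedited one. The 39-base allele had 52.2% of 1847 matched ends at the main start (49.9 to 54.5%) against 28.6% unedited. The 36-base allele had 40.8% of 1043 (37.9 to 43.9%) against 26.2%, and the 50-base allele had 62.9% of 534 (58.7 to 66.9%) against 49.4%. The 30-base deletion chr19:12734625-12734654 has the same upstream edge as the 39-base allele and ends 9 bases short of it. On it the main start held 68.3% of 142 ends (60.3 to 75.4%), an interval above that of the 39-base allele; this pair was singled out after its values were seen.

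Starts close to the deletion, summed over 8 to 19 bases, took fewer ends relative to those farther off. Starts 8 to 19 bases before a large deletion were set against those at least 20 bases before it. The edited to unedited odds ratio was 0.266 at C19orf43, on 628 near and 4160 far ends. When only starts 20 or more bases upstream were compared, the main-start difference at C19orf43 was 7.85 points (2.59 to 13.1) in place of 17.5. In the near range the ratio was 0.113 at RBM4, 0.206 at IRF1, 0.317 at NDUFV3, 0.515 at C1orf63 and 0.576 at TMED9, on 10 to 53 near ends each. All 6 ratios over this range were below 1, but some in finer windows were not. The ratio was 1.48 at C1orf63 for starts 16 to 19 bases away, which held 39 of its 53 near ends. It was 1.64 at TMED9 for starts 12 to 15 bases away, on 7 ends. The unedited near to far ratio of each allele, applied to its far edited ends, would give 39.1 and 2.81 ends there. The C1orf63 count thus shows no excess by that measure. The same ratio for deletions of 1 to 20 bases was 0.616 at C19orf43, 0.347 at RBM4, 0.103 at IRF1, 0.349 at NDUFV3, 0.181 at C1orf63 and 0.400 at TMED9, so the large deletions were lower at 3 targets and higher at 3. No test of these differences was made.

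At RBM4 the main start (66616630) took a smaller part. It held 78 of 156 edited ends, 50.0% (42.2 to 57.8%), against 70.8% of matched unedited ends, a difference of −20.8 points (−30.5 to −11.1) over 15 alleles. The largest gain was 14 bases upstream, at 66616616, with 27 edited ends or 17.3% (12.2 to 24.0%) against 3.41%. Position 66616613, 17 bases upstream, held 10 ends, 6.41%, against 1.11%. The mean position was 4.33 bases farther upstream (2.66 to 6.005). Starts with at least 20 retained bases gave −21.2 points (−32.0 to −10.3). Without the 35-base allele, which held 83 ends, the difference was −13.3 points (−24.5 to −2.04) on 73 ends. With alleles of 5 or more ends weighted equally it was −15.1 points and the interval spanned 0 (−31.7 to 1.54).

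At C1orf63 most large deletions remove the main start (25247454), so the few that keep it carry the comparison. On the 17 alleles that keep it, the main start held 7 of 36 ends, 19.4% (9.75 to 35.0%), against 78.9% of unedited ends (76.7 to 80.9%). The difference was −59.4 points (−72.4 to −46.5). No large deletion at C1orf63 begins more than 16 bases downstream of the main start. On these alleles the main start thus always lies in the near range of 8 to 19 bases. This difference and a lower use of near starts cannot be told apart here. Over all 71 matched alleles the main start held 7 of 172 ends, 4.07%, against 16.5%, a difference of −12.4 points (−23.0 to −1.87). The interval spanned 0 with at least 12 retained bases (−9.27, −19.4 to 0.841) and with only alleles of 5 or more ends (−11.7, −34.0 to 10.5, or −9.22 with equal weights). On the 12 alleles with an intron-type pair (66 ends) it was 0.641 points, and the interval spanned 0 (−0.413 to 1.69). Alleles that lack the main start give 0 on both sides, so no direction is drawn from this value. Position 25247485, 31 bases upstream, held 108 of the 172 edited ends, 62.8% (55.4 to 69.7%), against 36.3% of matched unedited ends. Position 25247509, 55 bases upstream, had 7 edited ends, 4.07% (1.99 to 8.16%), and 0 unedited ends. Over the positions these alleles retain, 0 unedited ends allow up to 2.04%, which lies within the edited interval. This position passed the minimum of 10 ends only through edited ends. Position 25247490, 36 bases upstream, was lower, with 5.81% against 14.4% on 27 unedited ends. The shift of the mean position, 5.01 bases, had an interval that spanned 0 (−0.169 to 10.2); without the allele with the most ends it was 6.03 (0.675 to 11.4).

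NDUFV3, IRF1 and TMED9 had too few ends on alleles that keep the main start for a firm value. At NDUFV3 the main start (42893311) held 1 of 14 ends, 7.14% (1.27 to 31.5%), against 26.6% unedited, a difference of −19.4 points (−34.3 to −4.63). Over all 121 matched ends the leading positions were 39 and 40 bases upstream. The first held 56 ends, 46.3%, against 45.1% unedited, and the second, 42893271, held 27 ends, 22.3% (15.8 to 30.5%), against 16.9%. The mean position at NDUFV3 was 2.86 bases farther upstream, with an interval whose lower bound, 0.00636, was barely above 0; it was 1.11 (−1.52 to 3.74) with at least 12 retained bases and −0.924 (−2.90 to 1.05) with at least 20.

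At IRF1 the main start (132490773) held 0 of 4 ends (Wilson interval up to 49.0%), and only 26 unedited ends were at the compared positions. Position 132490808, 35 bases upstream, held 19 of 75 edited ends, 25.3% (16.9 to 36.2%), and position 132490813 held 16. Each had 1 unedited end, which gave a matched unedited share of 8.63%. Both positions passed the minimum of ends per position only through edited ends, so no gain is drawn from them. At TMED9 the main start (177592203) held 14 of 26 ends on alleles that keep it, 53.8% (35.5 to 71.2%), against 78.2%. The interval of that difference spanned 0 (−24.3 points, −52.8 to 4.20). The largest gain at TMED9, 177592207, rested on 3 edited ends. No difference over all alleles at IRF1 (−3.08 points, −6.56 to 0.411), NDUFV3 (−2.25, −4.63 to 0.130) or TMED9 (−14.0, −30.2 to 2.14) excluded 0. Without the first of its tied leading alleles TMED9 had −19.2 points (−36.0 to −2.45).

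**Figure D3:**
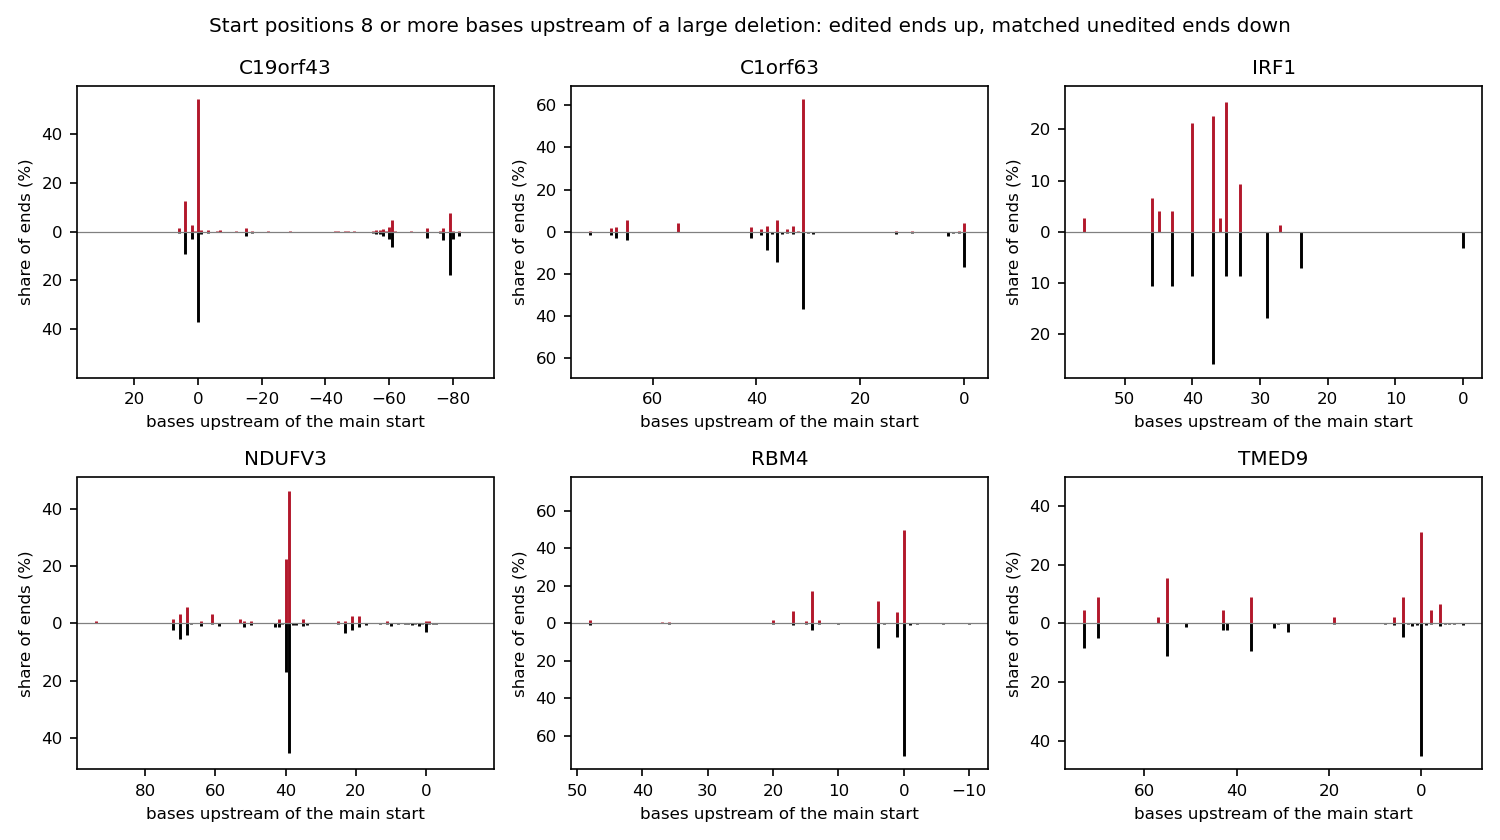
Share of 5′ ends in percent at each start position 8 or more bases upstream of a large deletion, with edited ends drawn upward and matched unedited ends downward, against bases upstream of the main start (negative values are downstream). At C19orf43 the tallest bar at 0 is higher among edited ends, 54.4% against 36.9%, at RBM4 it is lower, 50.0% against 70.8%, and at C1orf63 the bar 31 bases upstream is higher, 62.8% against 36.3%.

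Single alleles were counted where at least 20 matched ends and a retained main start allowed it. The main-start share was below the matched unedited share in 8 of 27 large-deletion alleles, against 71.6% of 289 alleles of any length in the same targets and 76.0% of 262 alleles under 30 bases. Of the 27 alleles, 25 were at C19orf43, where 6 were lower, and both of the alleles at RBM4 were lower. Among the shorter deletions of C19orf43, 47 of 100 were lower. The count therefore describes C19orf43 almost alone. Differences among the 27 ran from −27.5 to 39.8 points, with a median of 10.0.

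Across length classes, the main-start share on alleles that keep the main start went in opposite directions at C19orf43 and C1orf63 up to 29 bases. At C19orf43 the edited to unedited ratio was 0.471 for deletions of 1 to 2 bases, 0.851 for 3 to 9, 1.25 for 10 to 20, 1.89 for 21 to 29 and 1.47 for 30 or more. At C1orf63 it was 0.849, 0.565, 0.387, 0.362 and 0.247 over the same classes. Within the large deletions the order did not go on: the ratio was 1.71 at 30 to 39 bases and 1.20 at 40 or more at C19orf43, and 0.169 (15 ends) and 0.302 (21 ends) at C1orf63. The C1orf63 share with large deletions, 19.4% (9.75 to 35.0%), lay below that with deletions of 3 to 9 bases, 44.5% (42.4 to 46.6%), but overlapped that with 21 to 29 bases, 28.6% (18.9 to 40.7%). RBM4 had no order by length: 75.9% with 1 to 2 bases, 55.7% with 3 to 9, 66.7% with 10 to 20, 73.1% with 21 to 29 and 53.4% (45.3 to 61.3%) with 30 or more. At TMED9 the large-deletion share, 53.8%, lay within the range of the shorter classes with more than 1 end, 46.2 to 64.5%. The distance from the main start to the deletion was not matched between length classes, so length and distance are not separated in these values.

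**Figure D4:**
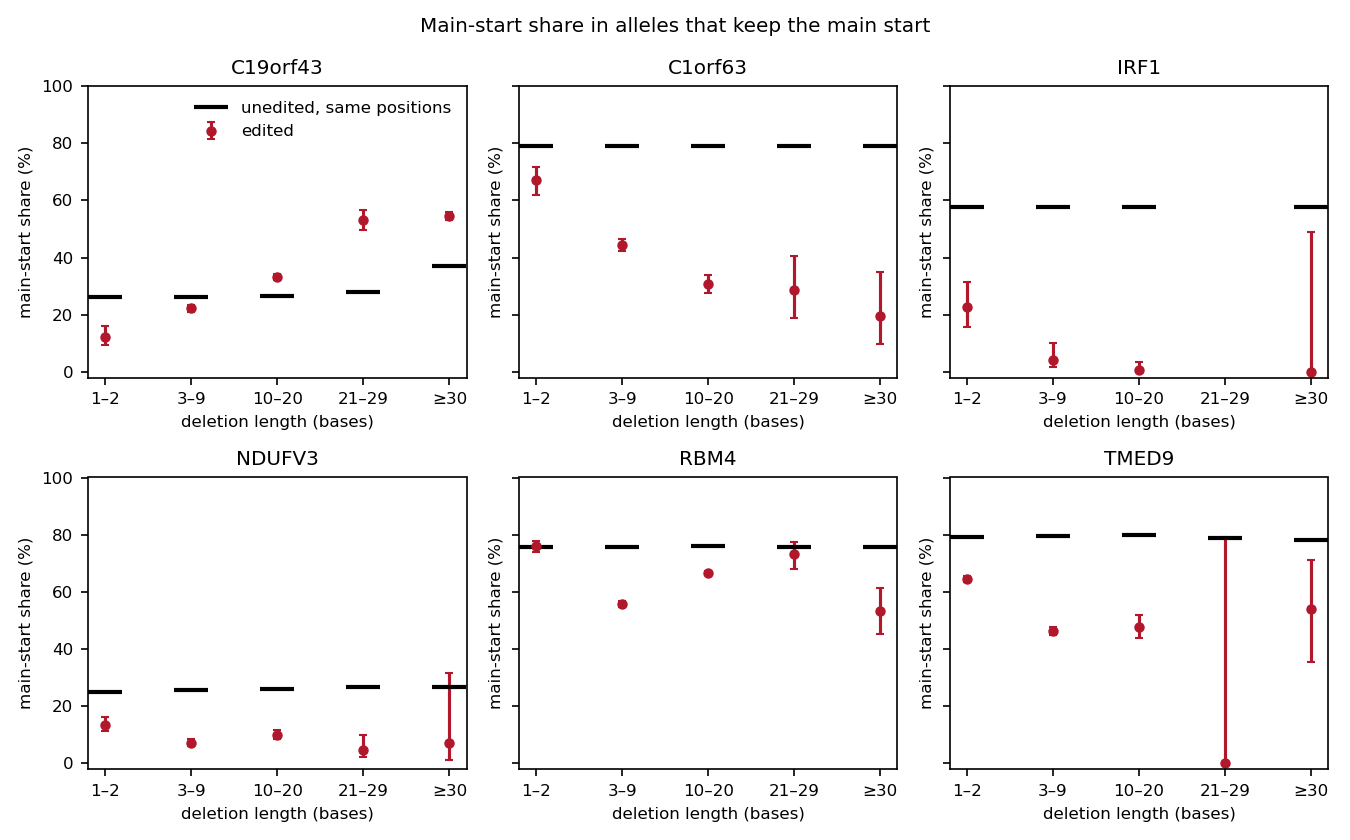
Main-start share in percent on alleles that keep the main start at least 8 bases upstream, by deletion length in bases, for edited ends (circles with Wilson 95% intervals) and for unedited ends at the same positions (bars). At C1orf63 the circles fall from 67.0% to 19.4% below a bar near 78.9%. At C19orf43 the circles go from 12.3% to 54.4% while the bar goes from 26.1% to 36.9%. At IRF1, NDUFV3 and TMED9 the class of 30 or more bases rests on 4, 14 and 26 ends.

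Large and shorter deletions were also compared at the same upstream edge, which gives both classes the same retained starts. No minimum of large-deletion ends was set for an edge, so the counts of edges below can rest on few ends. At C1orf63 the main start held 19.4% of 36 ends with large deletions and 48.8% with shorter deletions from the same 8 edges. The large class was lower at 8 of 8 edges, with a mean difference of −29.3 points. At RBM4 it held 53.4% against 62.9%, and was lower at 3 of 3 edges. At C19orf43, over 20 shared edges with 3247 large-deletion and 11182 shorter-deletion ends, the shares were 49.7% (48.0 to 51.4%) and 52.3%, a difference of −2.62 points. The large class was lower at 7 of the 20 edges, so the mean over ends and the count of edges went opposite ways, and the difference was 7.26 points when edges within 2 bases were joined. No direction is drawn from these values at C19orf43. TMED9 had 41.2% of 17 ends (21.6 to 64.0%) against 56.5%, NDUFV3 1 of 14 ends against 8.76%, and IRF1 0 of 3 ends against 5.79%, each within the interval of its large-deletion share.

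The letters AANATGGC, which resemble the binding letters of YY1, a zinc-finger factor known to act downstream of starts, were found on the transcript strand at C19orf43 (chr19:12734653-12734660) and TMED9 (chr5:177592212-177592219), each across the annotated start codon. They were searched on both strands, and 6.58% of 35116 RefSeq promoters of 300 bases (GRCh38.p14) hold them.
C19orf43: AAAATGGC
TMED9: AAGATGGC
A large deletion leaves these letters in the allele in 34 of 133 alleles at C19orf43, the 39- and 36-base alleles among them, and in 7 of 22 at TMED9. At C19orf43 the main start held 48.7% of 3077 ends (46.9 to 50.4%) where the letters remained, against 27.7% unedited. Where they were lost it held 64.8% of 1711 ends (62.5 to 67.0%) against 53.6%. Deletions that remove the letters also retain fewer of the downstream starts, so the unedited shares they are set against differ. The differences from unedited were 20.996 points (15.6 to 26.4) and 11.2 points (5.68 to 16.8), and these intervals overlapped. With at least 20 retained bases they were 10.3 points (3.22 to 17.4) and 4.03 points (0.256 to 7.80). At TMED9 the main start held 12 of 20 ends where the letters remained, 60.0% (38.7 to 78.1%), and 33.3% of 6 ends (9.68 to 70.0%) where they were lost, against 77.9% and 79.2% unedited. The difference between keeping and losing the letters was not tested at either target.

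Ends whose start lies inside the deletion they carry were rare. They made up 20 of 5427 ends, 0.369%, against 2 of 65393 ends with shorter deletions. C19orf43 had 17 of the 20, TMED9 2 and C1orf63 1. These ends were left out of the comparisons of start use.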

How the data were processed

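The authors deposited CRISPR-Cap as 1 line per capped 5′ end, with its class, position, deletion edges, deletion length and target; values are genome coordinates, not counts, so no count model was used. Per the submitters' processing notes, the tools and build include STAR and hg38, for which the sources used here give no version or setting. Positions were read as counted from 0, edges as half-open intervals, and all printed coordinates count from 1. No column that separates the 2 libraries exists in the list, so the number of ends stands for depth, and no replicate test was possible. The STAP-seq files were not used here; 0 columns of per-sample values were set aside.

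Strand, exons and bases came from GENCODE release 29 transcripts and RefSeq promoters. Start positions with under 10 ends in a target, edited and unedited together, were left out. A position with few unedited ends could thus pass through its edited ends. At least 8 retained bases were required, and single alleles needed 20 matched ends. Intervals are 95%: Wilson for shares, and for differences from the spread between alleles plus unedited counting. They treat ends as independent. The comparison of start use was run on simulated ends drawn independently from the unedited starts. These hold no duplicate reads and no loss of starts near a deletion, so the run cannot show how the comparison behaves with either. Named items are, for each target, the main start, the positions of largest matched gain and loss and the 3 alleles with most ends. Further positions, alleles and shared edges were chosen after their values were seen. The members and lists were chosen with earlier results of these data known. Alternatives on retained bases, position minimum, length, weighting and placement were planned, and those on subsets of alleles were chosen after seeing the data. Python 3.11.15 with pandas 2.3.3 and numpy 2.4.6 was used.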

Additional observations from a re-analysis of the deposited data

How the results depend on the processing

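No paired analysis was possible because the list pools both libraries with no column for the replicate, and leaving out a replicate was not run for the same reason. Of 176 alternative values, 137 stayed within the main 95% interval or within 1.5 times the main count and 39 did not. Some of the 137 were main-start differences fixed at 0, because no retained start was the main start. Examples are IRF1 with 20 or more retained bases, and IRF1 and NDUFV3 with only alleles of 5 or more ends. Such values do not speak to stability. The sign changed in 12, of which 5 were of a main value whose interval excluded 0. The main-start difference kept its sign under all 14 alternatives at C19orf43 (7.85 to 26.9 points) and TMED9 and all 13 at RBM4. The cause of the changes below was not tested, beyond fewer or other alleles entering.

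With 20 or more retained bases the main-start difference was 7.85 points at C19orf43 and 0 at C1orf63, where no retained start is the main start, and the shift was 4.19 bases at C19orf43 (10.2 with 12 or more) and −0.924 at NDUFV3. With deletions of 40 or more bases the share difference was 10.7 points at C19orf43 and −26.9 at C1orf63, and the shift 8.10 bases at C19orf43, 13.4 at C1orf63, 7.30 at NDUFV3 and 6.56 at RBM4. With 20 or more bases the share difference was −8.95 points at NDUFV3 and −6.28 at RBM4, and the shift −1.46 bases at IRF1, 7.58 at NDUFV3 and 0.938 at RBM4. Equal weights gave shifts of 8.44 bases at C19orf43 and −0.966 at NDUFV3, alleles with 5 or more ends −0.508 at NDUFV3, and no position minimum −0.883 at IRF1. Other changes of sign were shifts of −0.0170 bases at C1orf63 (20 or more retained bases) and of −0.567 (equal weights) and −0.591 (alleles with 5 or more ends) at TMED9, and a difference at shared edges of 0.235 points at NDUFV3.

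Alleles that keep the main start gave −59.4 points at C1orf63, −57.7 at IRF1 and −19.4 at NDUFV3, and shifts of 23.8, 23.5 and 10.2 bases. Alleles with an intron-type pair gave 0.641 points and −1.33 bases at C1orf63 and 8.41 bases (1 allele) at NDUFV3. Those without gave 26.9 points and 27.9 bases at C19orf43, −10.5 points at IRF1, and −32.0 points and 7.81 bases at TMED9. Alleles that include the marker base gave 7.14 bases at TMED9. With 50 or more ends per allele, 2 of 11 alleles were lower. Joining edges within 2 bases gave 7.26 points at C19orf43 and −8.53 at IRF1. Weighted by ends, 86.9% had 2 or more shared bases.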
